A study of Mus musculus with 8 samples.

Results

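The baseline transcriptome of lens fiber cells (FC) of untreated mice was described from the 4 libraries of untreated control (Ct) mice, out of 8 libraries in the series. The other 4 libraries, from mice exposed to cigarette smoke, were not used, and no comparison of groups was made. All 35275 rows of the deposited table, each a gene or gene model, were taken into account. The Ct mice were C57BL/6 by the labels and C57BL/6J by the study's methods, carried no transgene according to the labels, and were housed without smoke for 3.5 months. A pool of right lenses, from 4 mice, gave each library, after the epithelium of the lenses had been removed by dissection. The study's methods describe 2 male and 2 female pools in each group, while its overview speaks of equal numbers of both sexes in the replicates, and the labels do not give the sex of each pool. The pools are called by their replicate numbers, 1 to 4, and these 4 pools of different mice are the n behind each SD.

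The ocular lens grows throughout life from a single layer of epithelial cells at its front, which divide and differentiate into long fiber cells at the equator. Fiber cells fill themselves with crystallins, the soluble proteins that give the lens its refractive power, build a cytoskeleton of beaded filaments that is particular to them, and couple to each other through water channels and gap junctions. As they mature, they lose the nucleus and the other organelles and with them the ability to make new RNA, so that RNA of whole fiber tissue comes from the young outer cells and from RNA that has outlasted its nucleus.

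The values deposited by the authors are FPKM, reads of a gene divided by its length and by the reads of the library, so that levels of different genes can be compared per length of transcript. A gene's FPKM moves in steps that are each worth 1 read, and from these steps the reads behind every value were found for all 9590 genes whose mean reached 1.0 FPKM. The FPKM of replicates 1 to 4 rested on 19884187, 19745824, 23251413 and 18093762 fragments. The median value of such a gene in a library stood on 313 reads, and 83.6% of the values on at least 100 reads. Counting error taken from these reads does not cover amplification, as no molecular identifiers are described.

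The tissue showed the markers of fiber cells. Cryaa, the alpha A-crystallin, was at 95499.9, 95055, 101638 and 96806 FPKM in replicates 1 to 4, Bfsp1, which encodes the beaded filament protein filensin, at 7519, 7976, 6993 and 8032 FPKM, and its partner Bfsp2 (phakinin) at 2646, 2604, 2435 and 2670.3 FPKM. Mip, the aquaporin that is the main membrane protein of lens fibers, was at 2416, 2483, 2364 and 2459 FPKM. All 4 of these markers were among the 21 most abundant RNAs and their levels lay close together in the 4 pools. The fifth marker, Lim2, another membrane protein of fiber cells, was low. It is listed in 3 rows of the table, 1 with 7.17, 8.62, 6.47 and 7.88 FPKM in replicates 1 to 4 and 2 at 0 in every library. Reads that fit several rows may have been left uncounted, so the level of Lim2 is uncertain.

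Very few genes held most of the RNA. Of all rows, 15658 were at 0 in every library and 9590 had a mean of at least 1.0 FPKM, which is called expressed here. These were 9086 protein-coding genes and 504 rows of other types, nearly all non-coding RNAs and pseudogenes, with 3 segments of immunoglobulin or T cell receptor genes among them. In a single library 9549 ± 130 genes (SD, n = 4) reached 1.0 FPKM, and 8788 genes reached it in all 4 libraries. Only 11 genes stood at 10000 FPKM or more, and they held 64.0% of the summed FPKM. Another 47 genes lay between 1000 and 10000 FPKM (13.01% of the sum), 279 between 100 and 1000 (10.9%), 2410 between 10 and 100 (8.49%) and 6843 between 1.0 and 10 (3.35%). The 7 most abundant genes, all crystallins, together passed 50% of the summed FPKM, 45 genes passed 75% and 551 genes 90%.

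**Figure D1:**
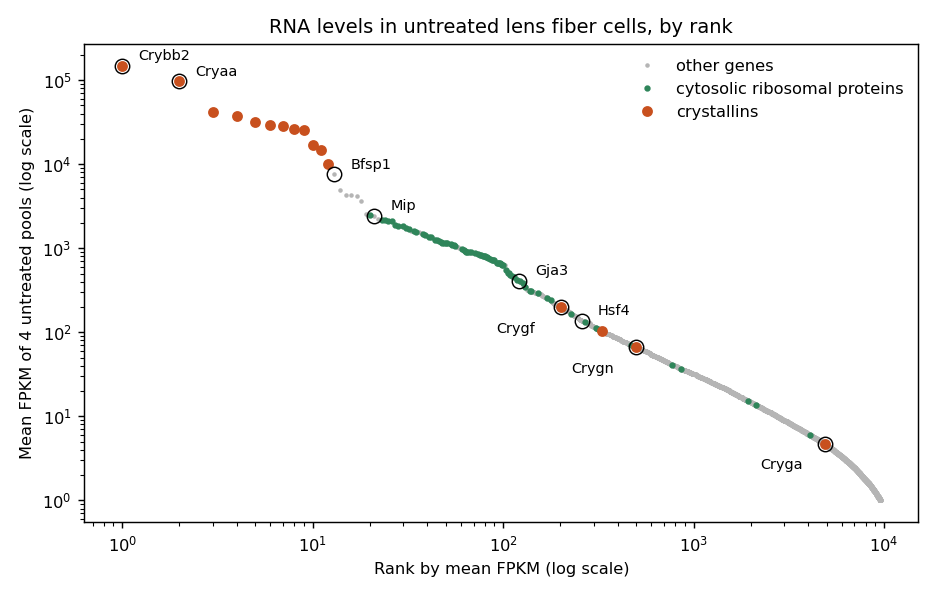
Mean FPKM of the 4 untreated pools (vertical axis, log scale) against the rank of the gene (horizontal axis, log scale) for the 9590 genes whose mean reached 1.0 FPKM, with crystallins in orange, cytosolic ribosomal proteins in green, all other genes in grey and named genes ringed. Crystallins fill ranks 1 to 12, Bfsp1 follows at rank 13, and the other 4 crystallins lie between ranks 201 and 4894.

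All 16 crystallin genes examined were expressed, and together they made up 64.8, 65.0, 65.9 and 65.7% of the summed FPKM in replicates 1 to 4. The mean share was 65.3 ± 0.497% (SD, n = 4), with the 4 pools close to each other. Crystallin transcripts are short, with a median length of 795 bases behind their FPKM against 2994 bases for all expressed genes, and as a share of reads they made up 48.0 ± 0.535% (SD, n = 4). The 12 highest crystallins were the 12 most abundant genes of the tissue and held 99.9% of all crystallin FPKM.

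By family, the 6 beta crystallins held 50.1 ± 0.746% of the crystallin FPKM, the 8 gamma crystallins 27.5 ± 0.928% and the 2 alpha crystallins 22.4 ± 0.703% (SD, n = 4 each). The alpha crystallins belong to the small heat shock proteins and keep other proteins in solution, while the beta and gamma crystallins share a structural fold and serve mainly as packing material. Crybb2, a beta crystallin, was the most abundant RNA of the tissue, with 152073, 145583, 146568 and 149736 FPKM in replicates 1 to 4, which was 19.1% of the summed FPKM. Cryaa came second, and its level was 5.79 times that of Cryab, the other alpha crystallin, which was at 16212, 16472, 18379 and 16075 FPKM. Both alpha crystallins were highest in replicate 3, and the other 3 pools lay within 16075 to 16472 FPKM for Cryab.

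Among the other beta crystallins, Cryba1 was at 29638 ± 902 FPKM, Cryba4 at 26212 ± 1157 FPKM, Cryba2 at 25854 ± 557 FPKM, Crybb1 at 14699.6 ± 225 FPKM and Crybb3 at 9928 ± 538 FPKM (SD, n = 4 each). Cryba4 and Cryba2 were neighbours in this order and their values overlapped between pools, while Crybb3 stood below every value of Crybb1. Crybb1 varied least of all crystallins, with an SD of 0.02 on the scale of log2(FPKM + 0.1), which is used for the spread of levels from here on. Crybb2 and Crybb3 lie close to each other on chromosome 5 of GRCm38, Crybb2 from 113058258 to 113070117 and Crybb3 from 113075839 to 113081584, and so do Cryba4 from 112246493 to 112252518 and Crybb1 from 112255815 to 112269585.

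The gamma crystallins divided into abundant and scarce RNAs. Crygs, a member encoded apart from the others on chromosome 16, was at 40898, 41060.5, 42183 and 42566 FPKM in replicates 1 to 4, Crygb at 35292, 39301, 35875 and 39039 FPKM, Crygd at 30462, 33953, 30901 and 33371 FPKM and Crygc at 27242, 29642, 27877 and 29208 FPKM. The others were far lower, with Crygf at 171, 212, 195 and 216 FPKM, Cryge at 102, 111, 94.4 and 109 FPKM, Crygn at 57.2, 64.4, 79.6 and 63.6 FPKM and Cryga at 4.28, 4.80, 5.40 and 4.24 FPKM. Crygb, Crygc, Crygd, Cryge and Crygf were each higher in replicates 2 and 4 than in replicates 1 and 3, without overlap. Crygs, Crygn and Cryga were not.
Cryge, Crygd, Crygc, Crygb and Cryga lie in this order on chromosome 1 within 65048554 to 65103373 of GRCm38, so that Crygb, at 7987 times the mean FPKM of Cryga, is its next neighbour in the cluster. Crygf lies apart from them on the same chromosome, from 65926520 to 65928307. These 6 genes have similar sequences, and reads that fit several of them may have been left uncounted, which makes the low values of Cryga, Cryge and Crygf, and the ratio of Crygb to Cryga, uncertain.

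**Figure D2:**
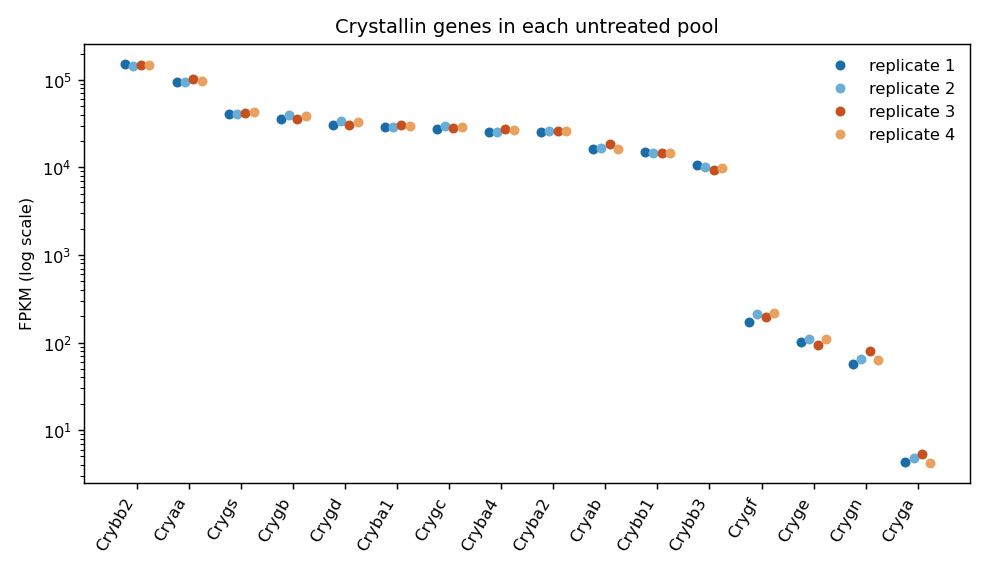
FPKM (vertical axis, log scale) of the 16 crystallin genes (horizontal axis, ordered by mean FPKM), with 1 point for each of the 4 untreated pools. The points of a gene lie close together beside the distance between Crybb3, at 9928 FPKM, and Crygf, at 198 FPKM.

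Since crystallin promoters are studied as models of lens-specific transcription, the bases before the transcription start of 6 crystallin genes are shown, as RefSeq gives them for build GRCm38.p6. They were chosen to hold the highest RNAs (Crybb2 and Cryaa), the neighbours Cryba4 and Crybb1, and the neighbours Crygb, an abundant gamma crystallin, and Cryga, the lowest crystallin. Each sequence runs 5′ to 3′ and ends at the base before the start. Capitals mark TGCTGA on either strand, which is the core of the recognition element of the MAF family of transcription factors and reads TCAGCA when it lies on the other strand, and TATAAA on the strand of the gene. The 2 motifs do not overlap in these windows.
Crybb2, chr5:113070118-113070367, minus strand: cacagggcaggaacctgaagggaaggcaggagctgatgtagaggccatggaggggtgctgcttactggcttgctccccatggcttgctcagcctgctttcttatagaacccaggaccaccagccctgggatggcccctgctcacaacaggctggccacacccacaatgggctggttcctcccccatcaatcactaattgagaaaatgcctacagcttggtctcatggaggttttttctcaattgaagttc
Cryaa, chr17:31677681-31677930, plus strand: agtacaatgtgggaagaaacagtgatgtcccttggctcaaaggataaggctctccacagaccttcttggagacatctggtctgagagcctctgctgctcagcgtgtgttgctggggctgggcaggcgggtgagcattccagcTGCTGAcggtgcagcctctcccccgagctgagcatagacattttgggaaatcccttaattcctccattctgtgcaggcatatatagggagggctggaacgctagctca
Cryba4, chr5:112252519-112252768, minus strand: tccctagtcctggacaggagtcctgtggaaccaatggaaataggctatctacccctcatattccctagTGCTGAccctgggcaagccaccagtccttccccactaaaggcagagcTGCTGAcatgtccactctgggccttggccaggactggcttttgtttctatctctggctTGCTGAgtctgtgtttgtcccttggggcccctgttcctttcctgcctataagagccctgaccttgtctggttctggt
Crybb1, chr5:112255570-112255819, plus strand: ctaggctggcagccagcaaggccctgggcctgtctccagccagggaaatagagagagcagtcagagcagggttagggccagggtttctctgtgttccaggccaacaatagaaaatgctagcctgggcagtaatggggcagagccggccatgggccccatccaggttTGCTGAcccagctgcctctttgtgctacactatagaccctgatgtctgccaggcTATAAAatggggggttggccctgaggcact
Crygb, chr1:65082291-65082540, minus strand: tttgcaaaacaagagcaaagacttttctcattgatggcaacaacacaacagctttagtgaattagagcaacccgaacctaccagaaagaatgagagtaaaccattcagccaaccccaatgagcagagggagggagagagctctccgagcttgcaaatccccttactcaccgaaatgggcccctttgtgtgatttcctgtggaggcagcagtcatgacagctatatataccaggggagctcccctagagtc
Cryga, chr1:65103364-65103613, minus strand: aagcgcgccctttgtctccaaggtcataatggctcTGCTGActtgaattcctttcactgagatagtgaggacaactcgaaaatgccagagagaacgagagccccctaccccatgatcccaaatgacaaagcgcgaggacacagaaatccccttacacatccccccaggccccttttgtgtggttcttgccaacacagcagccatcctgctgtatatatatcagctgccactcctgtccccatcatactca

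The RefSeq table held a promoter window for 15 of the 16 crystallins (all but Cryab), of 250 bases before and 50 bases after the start. TGCTGA stood in 10 of these 15 windows on either strand, against 19.5% of all 32851 windows of the same length and 14.5% of the 9180 windows of genes expressed in these FC. It began 108 bases before the start in Cryaa, 84 bases before it in Crybb1, and 182, 135 and 77 bases before it in Cryba4. The windows of Crybb2, Crygb, Crygd, Cryge and Crygf did not hold these letters, and the scarce Cryga and Crygn did as well. TATAAA stood in 4 of the 15 windows (Crygs, Cryba1, Cryba2 and Crybb1), in 8.32% of all windows and in 3.75% of those of expressed genes. These counts describe letters and not binding.

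After crystallins, 34.7 ± 0.497% of the summed FPKM was left (SD, n = 4), and the RNA in it was spread over many genes. The 109 highest of the other genes held 50% of this remainder, 743 genes 75% and 2849 genes 90%. Cytosolic ribosomal proteins were the largest class named, with 26.8 ± 0.284% of the remainder (SD, n = 4), and 62 of its 100 most abundant genes. The beaded and intermediate filament proteins followed with 4.16 ± 0.171%, non-coding RNAs and pseudogenes with 3.82 ± 0.0602%, translation factors with 3.37 ± 0.0477%, chaperones with 2.81 ± 0.0717%, nuclear-encoded subunits of oxidative phosphorylation with 2.55 ± 0.0304% and ferritin and iron genes with 2.34 ± 0.101% (SD, n = 4 each).
Fiber cell membrane proteins held 1.24 ± 0.0106%, ubiquitin and proteasome genes 1.24 ± 0.00730%, mitochondrially encoded RNA 1.14 ± 0.0637%, cytoskeletal genes 1.09 ± 0.0408%, glycolytic enzymes 0.752 ± 0.0245% and glutathione and redox enzymes 0.598 ± 0.0136% of the remainder (SD, n = 4 each). Protein-coding genes outside these classes, 8660 of them expressed, held 48.1 ± 0.533% of the FPKM left after crystallins and 64.3 ± 0.593% of the reads left after them (SD, n = 4 each). As a share of the reads left after crystallins, the order of the smaller classes changed. Translation factors, at 3.94 ± 0.0694%, stood above non-coding RNAs and pseudogenes, at 3.08 ± 0.158%. Oxidative phosphorylation genes held 1.27 ± 0.0108% and ferritin and iron genes 1.17 ± 0.0558%, below the cytoskeletal genes at 1.49 ± 0.0374% and the fiber cell membrane proteins at 1.47 ± 0.0133%, and mitochondrially encoded RNA was at 0.741 ± 0.0376% (SD, n = 4 each).

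**Figure D3:**
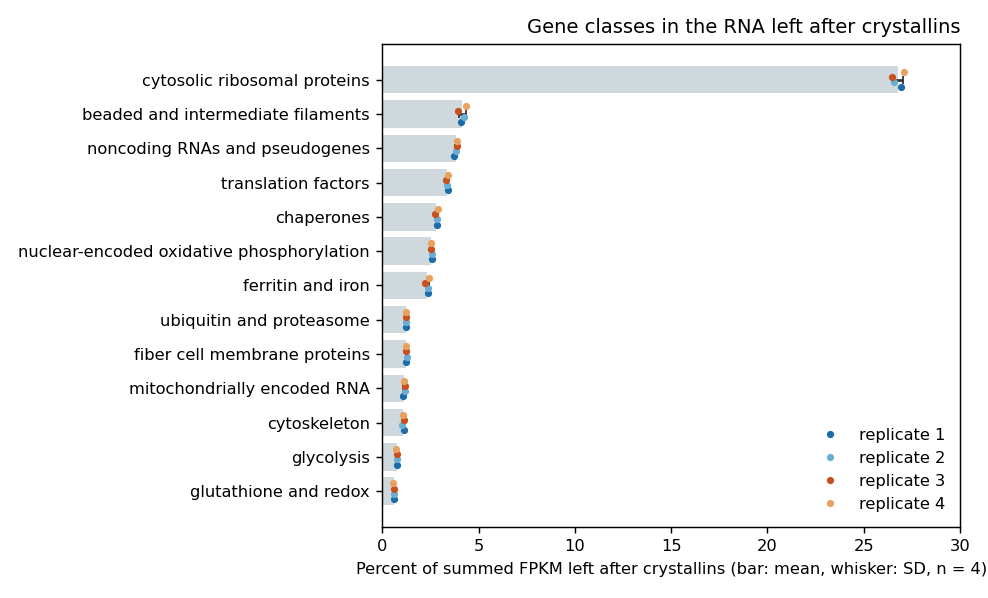
Share of the summed FPKM left after crystallins (horizontal axis, percent) for 13 gene classes, with bars for the mean, whiskers for the SD and 1 point for each of the 4 untreated pools. Cytosolic ribosomal proteins reached 26.8% and each other class shown under 5%; protein-coding genes of no class (48.1%) are not drawn.

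The cytosolic ribosomal proteins form the protein part of the ribosome together with ribosomal RNA. Of 87 such genes, 83 were expressed, 77 of them at 100 FPKM or more and 28 at 1000 FPKM or more. Their share of the remainder was 26.9, 26.6, 26.5 and 27.1% in replicates 1 to 4, a narrow range. Rplp1, a protein of the ribosomal stalk, was the highest at 2503 ± 104 FPKM, followed by Rps14 at 2194 ± 53.2 FPKM, Rps27 at 2168 ± 161 FPKM, Rpl28 at 2138 ± 90.6 FPKM and Rps12 at 2115 ± 75.4 FPKM (SD, n = 4 each). The order of the last 4 is not resolved, since their values overlapped between pools. These transcripts are short (median length 930 bases), and their share of the reads left after crystallins was 13.2 ± 0.219% (SD, n = 4). Many ribosomal protein genes have processed pseudogenes elsewhere in the genome that can take or share their reads. Their median SD of log2(FPKM + 0.1) was 0.05 between pools, against 0.15 over all expressed genes and 0.06 over the 337 genes at 100 FPKM or more.

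The translation factors had a single dominant RNA. Eef1a1, which brings amino-acyl transfer RNA to the ribosome, was at 4385, 4304, 4185 and 4366 FPKM in replicates 1 to 4, and Eef2, which moves the ribosome along the messenger RNA, at 1389, 1301, 1246 and 1349 FPKM. 59 of 63 translation factor genes were expressed, with a median of 17.6 FPKM.

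The RNAs of Bfsp1, Ftl1, Eef1a1, Hspb1, Lgsn and Yam1, in this order, stood at ranks 13 to 18, right after the abundant crystallins. Bfsp1 was at 7629.9 ± 483 FPKM (SD, n = 4). Ftl1, the light chain of the iron store ferritin, was at 5175, 5112, 4456 and 5117 FPKM in replicates 1 to 4, lowest in replicate 3. Hspb1, a small heat shock protein related to the alpha crystallins, was at 4249, 4205, 4158 and 4413 FPKM, and Lgsn, the lens protein lengsin of the glutamine synthetase family, at 4175, 4547, 3766 and 4469 FPKM.
The mean levels of Eef1a1, Hspb1 and Lgsn, at ranks 15 to 17, differed by less than the spread between pools. Yam1, listed as a long non-coding RNA, was the highest non-coding RNA with 3658, 3568, 3688 and 3689 FPKM, nearly the same in the 4 pools. Grifin, a lens protein related to galectins, was at 2221 ± 89.0 FPKM, Fabp5, a fatty acid binding protein, at 1822 ± 65.3 FPKM, Dapl1 at 1604 ± 28.6 FPKM, Cd24a, a small glycoprotein anchored at the cell surface, at 1542 ± 34.5 FPKM, Tpt1 at 1504 ± 33.6 FPKM and Lctl at 1381 ± 101 FPKM (SD, n = 4 each). The 30 highest genes after crystallins, of which 16 were ribosomal proteins, held 27.0% of the remainder.

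Of 6 filament genes, Bfsp1, Bfsp2 and Vim were abundant. Vim, which encodes vimentin, the filament of the lens epithelium and of young fibers, was at 1038, 1014, 1057 and 979 FPKM in replicates 1 to 4, below both beaded filament genes in every pool. Gfap, the filament of glial cells, was at 0.627, 2.83, 0.942 and 0.271 FPKM, highest in replicate 2, while Nes and Des stayed under 1.0 FPKM. The class as a whole was lowest in replicate 3, at 3.95% of the remainder, and highest in replicate 4, at 4.34%.

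Of the 17 genes in the list of fiber cell membrane proteins, 16 were expressed, with Slc2a3 as the exception at 0.0203 FPKM. Mip was the highest by far. Gja3, the gap junction protein connexin 46, was at 421, 417, 400.0 and 412 FPKM in replicates 1 to 4. Aqp5, another aquaporin, was at 139.9, 131, 121 and 125 FPKM, and the adhesion proteins Nrcam, Cadm1 and Cdh2 (N-cadherin) at 77.5 ± 2.95 FPKM, 65.1 ± 2.70 FPKM and 33.7 ± 0.325 FPKM (SD, n = 4 each). Aqp1 at 2.91, 7.06, 7.87 and 3.96 FPKM, Gja1 (connexin 43) at 3.56, 5.45, 9.25 and 3.42 FPKM and Atp1b1, a beta subunit of the sodium pump, at 2.87, 4.18, 7.78 and 3.01 FPKM were lower. Aqp1 and Gja1, although they stand in this list, are known mainly from the lens epithelium, and all 3 were highest in replicate 3. Slc2a1, a glucose transporter, was at 31.1, 38.2, 44.9 and 27.5 FPKM, also highest in replicate 3. Of the 16 genes of this list expressed, 5 were highest in replicate 3, near the share of 30.1% of all expressed genes.

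Of 14 transcription factors known from the lens, 12 were expressed, at far lower levels than the structural genes. Hsf4, the heat shock factor that acts in fiber cells, was the highest at 135, 141, 138 and 139 FPKM in replicates 1 to 4, with the pools very close. Maf, a factor that activates crystallin genes, was at 68.4, 63.3, 63.2 and 65.0 FPKM, Pitx3 at 68.3, 57.6, 67.9 and 60.4 FPKM and Prox1, which drives fiber elongation, at 43.6, 43.7, 45.9 and 43.5 FPKM. Sox2 at 36.6 ± 3.79 FPKM, Sox1 at 23.2 ± 1.35 FPKM, Pax6 at 22.3 ± 2.91 FPKM and Six3 at 21.5 ± 1.14 FPKM (SD, n = 4 each) had lower means. Foxe3, a factor of the lens epithelium, was at 33.1, 34.8, 64.0 and 25.1 FPKM, and here replicate 3 stood above the other pools, with the lowest value in replicate 4. Meis1 and Gata3 stayed under 1.0 FPKM on average.

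The RNA-binding regulators of fiber cells were all expressed, 6 of 6. Tdrd7, a component of RNA granules, stood out at 391, 397, 374 and 406 FPKM in replicates 1 to 4. Celf1 was at 67.8 ± 1.198 FPKM, Rbm24 at 67.5 ± 2.91 FPKM, Caprin2 at 31.5 ± 2.53 FPKM, Cpeb1 at 24.0 ± 0.824 FPKM and Stau2 at 10.1 ± 1.147 FPKM (SD, n = 4 each). Of 14 genes tied to the removal of the nucleus and organelles, 11 were expressed. Dnase2b, the enzyme that degrades the DNA of fiber cell nuclei, was at 69.0, 77.7, 63.9 and 69.9 FPKM, Pla2g16, a phospholipase that degrades organelle membranes in the lens, at 123, 119, 121 and 125 FPKM and Bnip3l, a receptor that marks mitochondria for removal, at 117, 123, 122 and 118 FPKM. Pla2g16 and Bnip3l lay close together in the 4 pools, each with an SD of log2(FPKM + 0.1) of 0.03, and Dnase2b varied more, with 0.12. Ubb, a polyubiquitin gene, was the highest of this list at 675 ± 22.7 FPKM (SD, n = 4), while Alox15, Cdk1 and Trim63 stayed under 1.0 FPKM.

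Glycolysis, the main source of energy of mature fibers, was represented by 17 of 18 genes of its list. The list includes the glucose transporter Slc2a1, which is counted with the fiber cell membrane proteins in the class shares. Gapdh was the highest at 1138, 1176, 1106 and 1109.6 FPKM in replicates 1 to 4, followed by the aldolases Aldoa at 201 ± 9.99 FPKM and Aldoc at 167 ± 11.3 FPKM and by the pyruvate kinase Pkm at 185 ± 5.75 FPKM (SD, n = 4 each). Of the lactate dehydrogenases, Ldha was at 18.5, 25.5, 32.1 and 13.6 FPKM and Ldhb at 0.309, 0.350, 0.198 and 0.254 FPKM, under 1.0 FPKM in every pool. Ldha was highest in replicate 3 and lowest in replicate 4. Of the 2 hexokinases listed, Hk2 was at 6.88 ± 0.334 FPKM and Hk1 at 5.21 ± 0.654 FPKM (SD, n = 4 each), with Hk2 above Hk1 in every pool.

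RNA of the mitochondrial genome was present. The highest were mt-Co1, a subunit of cytochrome oxidase, at 830.4, 920.3, 847 and 866 FPKM in replicates 1 to 4, mt-Cytb at 708, 797, 780.3 and 795 FPKM and mt-Nd1 at 438, 500.2, 495 and 474 FPKM. Each was lowest in replicate 1. Of the 13 genes, 6 were under 10 FPKM, and copies of mitochondrial sequence in the nuclear genome can share their reads, so these low values are uncertain. Of 86 nuclear genes of oxidative phosphorylation, 78 were expressed, led by the cytochrome oxidase subunits Cox4i1 at 557 ± 28.4 FPKM, Cox7c at 464 ± 31.2 FPKM and Cox8a at 389.6 ± 6.72 FPKM (SD, n = 4 each).

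Of 22 chaperones, 20 were expressed. After Hspb1 came Hspa8, the constitutive member of the HSP70 family, at 1069.9, 1017, 893 and 1018 FPKM in replicates 1 to 4 and Hsp90ab1 at 929, 916, 768 and 872 FPKM, both lowest in replicate 3. The stress-induced Hspa1a and Hspa1b were under 1.0 FPKM in every pool, at 0.0339, 0.0683, 0.130 and 0.0186 FPKM and 0.341, 0.669, 0.982 and 0.296 FPKM. In the ferritin and iron list, Fth1, the heavy chain of ferritin, was at 1026, 1021, 1078 and 1049 FPKM, below Ftl1 in every pool, and Hmox1, which degrades heme, at 298, 318, 259.7 and 299 FPKM. The transferrin receptor Tfrc was at 4.70 ± 0.328 FPKM (SD, n = 4). Of 26 redox genes, 24 were expressed. Sod1, the cytosolic superoxide dismutase, was the highest at 436, 460.3, 420.2 and 449 FPKM, followed by the glutathione transferase Gstp1 at 149 ± 12.2 FPKM, the peroxiredoxin Prdx6 at 134 ± 14.3 FPKM and the lipid peroxidase Gpx4 at 115 ± 7.16 FPKM. Gss, which completes glutathione, was at 97.0 ± 3.19 FPKM, while Gsr, which regenerates it, was at 2.40 ± 0.326 FPKM (SD, n = 4 each).

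Of 21 cytoskeletal genes, 20 were expressed, and Tuba1a, an alpha tubulin, was the highest at 904, 824, 923 and 861 FPKM in replicates 1 to 4. The actins Actb and Actg1 were at 298 ± 26.3 FPKM and 249 ± 25.5 FPKM, and the spectrins Sptan1 and Sptbn1, which line the fiber membrane, at 206 ± 3.47 FPKM and 106 ± 2.45 FPKM (SD, n = 4 each). The neuronal tubulin Tubb3 was under 1.0 FPKM at 0.0269, 0.190, 0.207 and 0.266 FPKM. In the ubiquitin and proteasome class, 73 of 90 genes were expressed, with Psmc5, a subunit of the proteasome cap, at 266 ± 12.1 FPKM and the conjugating enzyme Ube2m at 199 ± 9.14 FPKM (SD, n = 4 each) after Ubb.

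Of the 504 rows in the class of non-coding RNAs and pseudogenes that were expressed, 188 were pseudogenes, 119 long intergenic non-coding RNAs, 98 antisense genes and 87 processed transcripts. After Yam1, 2410006H16Rik was at 718, 678, 662 and 717 FPKM in replicates 1 to 4, the pseudogene Gm10736 at 425 ± 20.4 FPKM and Snhg12, a host gene of small nucleolar RNAs, at 345 ± 32.2 FPKM (SD, n = 4 each). Malat1, a long RNA that stays in the nucleus, was at 305, 401, 390.0 and 368 FPKM, lowest in replicate 1, and Neat1, the scaffold of nuclear paraspeckles, at 20.5, 29.8, 20.3 and 22.1 FPKM. The reads of pseudogenes and antisense genes can belong to the genes whose sequence they share or overlap.

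Markers of other cells of the eye were low for most cell types, and highest in sum for the lens epithelium and then the cornea. Of the 9 lens epithelium markers, 8 were expressed, and their summed level ran from 103 FPKM in replicate 4 to 153 FPKM in replicate 3. Wls, which carries WNT proteins to the cell surface, was at 60.1, 58.7, 50.4 and 49.6 FPKM in replicates 1 to 4, Cdh1 (E-cadherin) at 2.26, 3.09, 6.22 and 2.98 FPKM and Pdgfra at 1.301, 1.36, 2.56 and 0.774 FPKM. Mki67, a marker of dividing cells, was at 0.0300, 0.246, 0.201 and 0.132 FPKM. In bulk tissue, fewer cells of a type and less RNA per cell cannot be told apart. Of 10 rod photoreceptor markers, 4 were expressed, with Gnat1 (rod transducin) at 9.15, 7.05, 10.1 and 1.80 FPKM, and their summed level ranged from 10.9 FPKM in replicate 4 to 29.3 FPKM in replicate 3.
Of 5 corneal epithelium markers, Aldh3a1, Krt15 and Krt5 were expressed, while the defining Krt12 was at 0 in 3 pools and at 0.0895 FPKM in replicate 4. None of the 5 markers each of retinal pigment epithelium, pigmented cells, blood, vessels and immune cells reached a mean of 1.0 FPKM. Their summed levels were at most 1.84, 2.61, 1.73, 0.490 and 0.759 FPKM in any pool, and Best1 and Cldn5 were at 0 in every pool.

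The pools resembled each other closely, with a Pearson r of 0.98 for each pair of libraries across genes, which are not independent replicates. Over the 9590 expressed genes the median SD of log2(FPKM + 0.1) between the 4 pools was 0.15, with quartiles of 0.10 and 0.24, and the median coefficient of variation was 10.9%. Counting error alone gives a median SD of 0.08 for these reads, and the variance between pools was at or below that of counting for 1029 genes (10.7%). The spread fell with the level, from a median SD of 0.27 for the 2002 genes between 1.0 and 2 FPKM to 0.10 between 10 and 100 FPKM and 0.06 at 100 FPKM or more. In the last bin, counting error gives 0.02, below the spread observed. An SD of at least 0.5 was found for 464 genes, of which 8 had a mean of at least 10 FPKM.

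**Figure D4:**
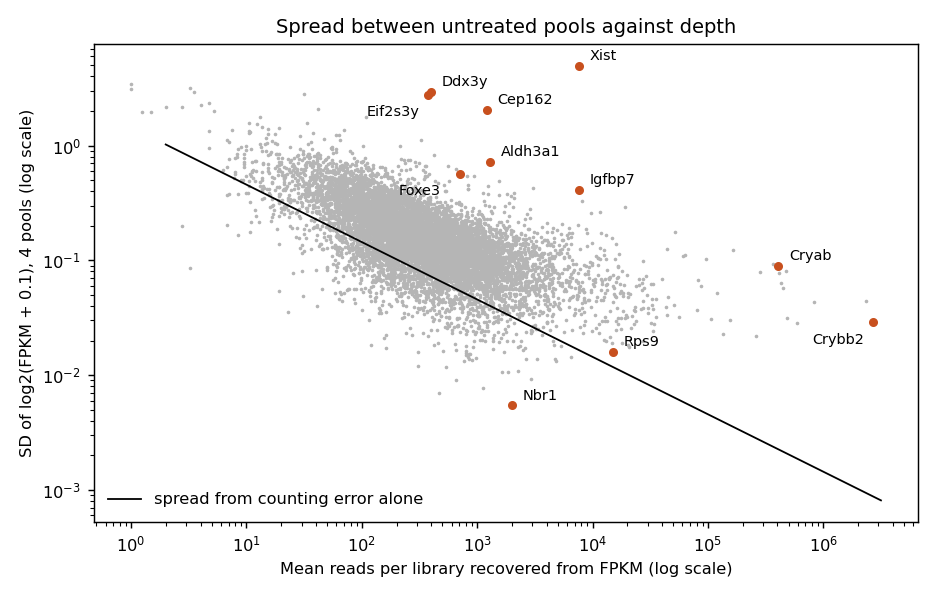
SD of log2(FPKM + 0.1) between the 4 untreated pools (vertical axis, log scale) against the mean reads per library (horizontal axis, log scale) for the 9590 expressed genes, with named genes in orange and the spread that counting error alone gives as a line. Xist, at 4.96, lies above all other genes, and Nbr1 lies below the line.

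Among genes averaging at least 10 FPKM, replicate 3 was the highest pool more often for the genes that varied most than for all of them. Of the 20 most variable, 13 were highest in replicate 3 and 10 lowest in replicate 4, whereas over all 2747 such genes 24.2% were highest in replicate 3 and 31.1% lowest in replicate 4. Of the 60 genes with an SD of at least 0.3, 27 were highest in replicate 3 and 19 in replicate 1. The count for replicate 1 is 31.7% of the 60, near the 33.4% of all 2747 genes that were highest in it. After Xist, Aldh3a1, an aldehyde dehydrogenase abundant in the cornea, varied most, with 24.6, 33.5, 64.1 and 20.5 FPKM in replicates 1 to 4 (SD of log2 0.72). Folr1, a folate receptor, was at 9.05, 10.99, 22.0 and 7.75 FPKM, R3hdml at 23.2, 28.3, 46.0 and 16.3 FPKM, the amino acid transporter Slc7a8 at 7.28, 11.3, 17.5 and 8.74 FPKM and its partner Slc3a2 at 12.3, 12.3, 20.99 and 10.9 FPKM. In these 5 genes replicate 3 stood highest, and all but Slc7a8 were lowest in replicate 4.
Igfbp7, a secreted binding protein of growth factors, was at 234, 293, 437 and 244 FPKM, the lysosomal protease Ctsl at 60.3, 80.7, 106 and 54.6 FPKM and Sdc4, a proteoglycan of the cell surface, at 11.7, 11.8, 14.8 and 6.57 FPKM. Foxe3 and Ldha, given above, belonged to the same 20 genes and were highest in replicate 3 too. Gm3699, also one of the 20, rested on only 34.5 reads per library on average. Without replicate 3, 9 of the 20 genes remained among the 20 most variable.

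Of the 8 lens epithelium markers expressed, 6 were highest in replicate 3 (Foxe3, itself one of the 20 genes, Cdh1, Pdgfra, Slc38a3, Npnt and Ccnd1), and 30.1% of all expressed genes were. Slc38a3, a glutamine transporter, was at 1.17, 1.45, 3.35 and 1.53 FPKM in replicates 1 to 4 and Npnt, a protein of the extracellular matrix, at 5.11, 4.68, 6.87 and 4.15 FPKM, both with replicate 3 above the others. Ccnd1 at 13.8, 13.3, 14.9 and 14.7 FPKM and Lama1 at 4.17 ± 0.142 FPKM (SD, n = 4) hardly differed between pools, and Wls was highest in replicate 1. The lens epithelium list summed to 121, 122, 153 and 103 FPKM in replicates 1 to 4, of which Foxe3 held 33.1, 34.8, 64.0 and 25.1 FPKM. Most of the higher sum of replicate 3 came from Foxe3. The corneal epithelium list summed to 31.0, 51.6, 72.7 and 25.6 FPKM, mostly from Aldh3a1, itself one of the 20 genes, while Krt15, a keratin, was at 3.08, 13.4, 5.34 and 3.12 FPKM and highest in replicate 2. The rod photoreceptor list summed to 25.6, 19.9, 29.3 and 10.9 FPKM. Of its 4 expressed markers 2 were highest in replicate 3, and of the 3 expressed corneal markers 1 was. All 3 sums were highest in replicate 3 and lowest in replicate 4. The lens and corneal epithelium sums followed Foxe3 and Aldh3a1, which were among the 20 genes picked by their spread between these same pools. These sums are therefore not observations separate from the 20 genes. Of the 17 genes expressed in the glycolysis list, which includes the glucose transporter Slc2a1, 10 were also highest in replicate 3. The part of these 3 cell types in the variable genes was not tested.
Not all variable genes followed this order. Pgam2, a muscle type of phosphoglycerate mutase, was at 44.4, 72.9, 38.8 and 40.9 FPKM, highest in replicate 2, and Polr2g, a subunit of RNA polymerase II, at 22.4, 12.1, 21.2 and 12.7 FPKM, high in replicates 1 and 3. Ide, the insulin-degrading enzyme, was at 16.9, 14.4, 8.43 and 10.7 FPKM and Phlda3 at 25.3, 17.6, 12.8 and 18.8 FPKM, both highest in replicate 1 and lowest in replicate 3.

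**Figure D5:**
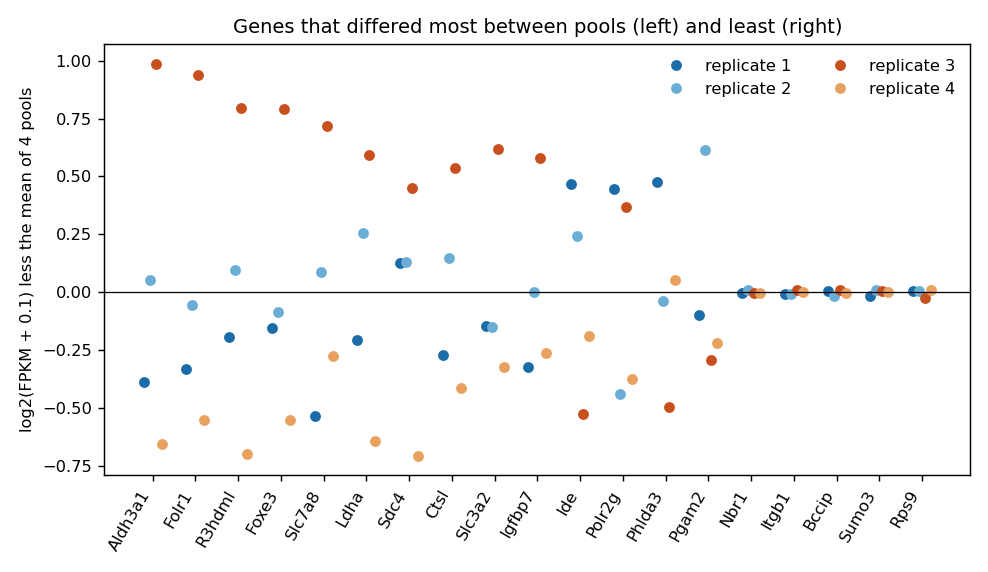
Level of 19 genes in each untreated pool as log2(FPKM + 0.1) less the mean of the 4 pools (vertical axis), for 14 of the most variable genes averaging at least 10 FPKM (left) and 5 of the least variable (right). Replicate 3 is the highest point for the first 10 genes, such as Aldh3a1 at 64.1 FPKM.

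Among all expressed genes, Xist had the largest spread, and the Y-linked Ddx3y and Eif2s3y stood at places 5 and 8. Xist, the RNA that silences one X chromosome in female cells, was at 0.0113, 0.00570, 41.1 and 42.1 FPKM in replicates 1 to 4, on 4, 2, 16984 and 13539 reads. The Y-linked Eif2s3y was at 10.5, 9.35, 3.59 and 0.0710 FPKM and Ddx3y at 6.79, 7.92, 2.28 and 0 FPKM, with 621, 719, 244 and 0 reads of Ddx3y. Kdm5d at 1.34, 1.77, 0.415 and 0.0139 FPKM and Uty at 0.927, 0.924, 0.248 and 0 FPKM, both with means under 1.0 FPKM, also had replicate 3 between replicates 1 and 2 on one side and replicate 4 on the other. Replicate 3 thus held both a high level of Xist and RNA of all 4 Y-linked genes. The labels name no sex for it, and the source of this RNA was not tested.
Cep162, a protein of the cilium base, was at 1.11, 0.956, 19.7 and 7.28 FPKM, highest in replicate 3. Of the 20 most variable expressed genes, 11 rested on fewer than 10 reads per library, among them Ighd3-1, Gm17567 and Gm17720, where the variance between pools was 1.39, 4.58 and 4.10 times that of counting error. With so few reads, these values say little about the pools. Npy, a neuropeptide, was at 10.2, 0.716, 0 and 0.293 FPKM and Prima1 at 2.62, 1.13, 3.44 and 0.0514 FPKM, on 31.5 and 41.8 reads on average.

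The 20 genes that varied least among those averaging at least 10 FPKM had means between 10.8 and 555 FPKM. Nbr1, a receptor of selective autophagy, had the smallest spread, with 20.4, 20.6, 20.4 and 20.4 FPKM in replicates 1 to 4 and an SD of log2(FPKM + 0.1) of 0.0055. Itgb1, the integrin beta 1 that binds fibers to the capsule, was at 37.4, 37.3, 37.8 and 37.6 FPKM, Bccip at 65.9, 64.9, 66.0 and 65.5 FPKM and Sumo3, a small ubiquitin-like modifier, at 34.3, 34.9, 34.8 and 34.7 FPKM. Cdh2, a cadherin of fiber cell contacts, and Rps9, a ribosomal protein at 557, 557, 546 and 559.6 FPKM, were also among the 20 least variable genes at this level. The coefficient of variation of these 20 genes was at most 1.12%. For Nbr1 the variance between pools was 0.0279 times that of counting error, and the ratio was under 1 for 19 of the 20 genes. Their order is not resolved by 4 pools. Without replicate 1, 2, 3 or 4, 4, 7, 4 and 2 of the 20 genes remained among the 20 least variable, and none (0) did after libraries were centred on the median or by the squared coefficient of variation less counting variance.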

How the data were processed

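Lens FC of untreated Ct mice were sequenced as 4 libraries. For the deposited FPKM, the authors ran STAR 2.5 against GRCm38 and then HTSeq 0.6.1 for counts per gene, library by library. The annotation release is not given in the sources used here. The table also holds 4 columns of FPKM of CS-exposed libraries, the authors' group means, and their log2 fold changes, p values and adjusted p values of the comparison between groups. None of these were used.

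Genes were ranked by mean FPKM, and a gene was counted as expressed at a mean of at least 1.0 FPKM. Shares are sums of FPKM over a class as a percentage of all FPKM or of FPKM left after crystallins. Each gene belongs to 1 class, the first that it matches. FPKM per length favours short transcripts, so shares of reads are given beside those of several classes. Spread between pools is the SD of log2(FPKM + 0.1), which understates the spread of low genes.

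Reads were found from FPKM by trying lengths of up to 150000 bases until every library gave whole reads, to within 0.02 reads at most. Of 9590 expressed genes, 5903 matched the longest annotated transcript, 545 another annotated length, and for 3142 the length came from the values, where the reads can be too few by a whole factor. The depth of a library rests on 475 to 642 low rows that give 1 value. Annotation and coordinates are from GENCODE M21 on GRCm38, in which 9122 expressed genes were matched by symbol, and promoters are from RefSeq. Python 3.11.15, numpy 2.4.6, pandas 2.3.3 and matplotlib 3.10.9 were used. The recovery of reads and the ranking by spread were tested on simulated data.

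No test between groups was run, since a single group is described, and Dixon's criterion was applied to the 4 pools of each measure printed. Members, gene lists and classes were chosen with earlier results of these data known, and Rps3a1 was added to the ribosomal proteins after values were seen. Genes named are the 30 highest in mean FPKM, the 30 highest after crystallins, up to 5 of each class, the 20 most and 20 least variable at a mean of at least 1.0 and of at least 10 FPKM, and members of the lists. Alternatives were other minimums and pseudocounts, shares of reads, protein-coding rows alone, centring, other measures of spread and leaving out each library. Some listed genes had no row and were not analysed here, and a few others are not reported here.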

Additional observations from a re-analysis of the deposited data

Results flagged for a closer look

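Among 161 measures with a value for each of the 4 pools, 12 had 1 pool standing apart by Dixon's criterion at 95%. Chance gives about 1 in 20, which is 8.05 of 161, but this rate does not apply to genes that entered because they varied most between the same pools, among them Slc3a2, Pgam2 and Npy, so the counts are a description. Replicate 3 held 7 of the 12, replicate 1 held 3, replicate 2 held 2 and replicate 4 held 0.

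Replicate 3 was high in Slc3a2 (20.99 FPKM, 10.9 to 12.3 in the others), Slc38a3 (3.35 FPKM, 1.17 to 1.53) and Prox1 (45.9 FPKM, 43.5 to 43.7). It was low in Ftl1 (4456 FPKM, 5112 to 5175), in the share of ferritin and iron genes in the remainder (2.19%, 2.38 to 2.41%), in Cox4i1 (515 FPKM, 567 to 577) and in Rpl28 (2003 FPKM, 2173 to 2200.4). The ferritin share and Ftl1 are not separate observations, since Ftl1 makes up most of the class.

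In replicate 1, Crybb1 was at 15036 FPKM, against 14576 to 14599 in the others, Actg1 at 287 FPKM, against 232 to 241, and Npy at 10.2 FPKM, against 0 to 0.716. In replicate 2, Rplp1 was at 2349 FPKM, against 2535 to 2571, and Pgam2 at 72.9 FPKM, against 38.8 to 44.4.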

How the results depend on the processing

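No paired analysis was possible because no result comes from a test between groups. With a minimum mean of 5 FPKM, 4684 genes were expressed. As a share of reads, crystallins were 48.0%, ribosomal proteins 13.2% of the remainder, and 302 genes held 50% of it. Among protein-coding rows alone the shares were 66.2% and 27.8%. Of the other 13 classes, 13 moved beyond their SD with shares of reads. With protein-coding rows alone, which leave 12 of them, 9 did. Leaving out 1 library gave 9521 to 9612 expressed genes, crystallin shares of 65.2 to 65.5%, ribosomal shares of 26.7 to 26.9% and 107 to 111 genes.

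The median SD of log2(FPKM + pseudocount) was 0.13 with a pseudocount of 1, 0.16 with 0.01, 0.11 with a minimum of 5 FPKM, 0.27 without a minimum, and 0.14 to 0.15 without 1 library.

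Of the 20 most variable expressed genes, 3 remained among the 20 with a minimum of 5 FPKM, since the rest were under it, 13 by the squared coefficient of variation less counting variance, and 12 to 15 without 1 library. At a mean of at least 10 FPKM, 9 to 17 remained, fewest without replicate 3. The least variable genes changed more than these by centring, by the squared coefficient of variation less counting variance and without 1 library. With other settings they did not. Of the 20 least variable at a mean of at least 1.0 FPKM, 18 remained with a minimum of 5 FPKM. By the coefficient of variation 20 remained, and 17 with a pseudocount of 1. None of the 20 remained (0) at either minimum after centring libraries on the median or by the squared coefficient of variation less counting variance. Without 1 library 0 to 5 remained at a minimum mean of 1.0 FPKM and 2 to 7 at 10 FPKM. The cause was not tested. Counts of reads limit genes near 1.0 FPKM most, and n = 4 limits every SD.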
